A study of Mus musculus with 24 samples.

Results

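Fibroblast growth factor (FGF) signalling was followed through 10 genes: the ligands Fgf4, Fgf5 and Fgf15, the receptors Fgfr2 and Fgfr3, the transcription factors Etv4 and Etv5, and the feedback inhibitors Spry2, Spry4 and Dusp6. They were chosen by gene name, and all 10 were found among the 51697 named genes of the read count table. RNA came from F123 mouse embryonic stem (ES) cells carrying CTCF fused to an auxin-inducible degron (CTCF-AID), in which auxin triggers breakdown of the CTCF protein. All 24 libraries are from these CTCF-AID cells, controls included, and the labels do not say how many clones were used. ES cells were grown with LIF and serum replacement and sampled at 0, 24, 48 and 96 h of auxin (groups ES_0h, ES_24h, ES_48h and ES_96h). Cells taken through neural progenitor differentiation were sampled on days 2, 4 and 6 without auxin (d2_ctl, d4_ctl, d6_ctl) or with it (d2_auxin, d4_auxin, d6_auxin). In the groups d4_washout and d6_washout, auxin was taken away at day 4 or 6 and RNA was collected after 2 further days. Each of the 12 groups has 2 libraries, and nothing in the labels says that they came from separate cultures, so p-values measure the spread between these libraries only.

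FGF ligands bind receptor tyrosine kinases at the cell surface, and the signal runs through the Ras-ERK cascade to transcription factors of the ETS family. Etv4 and Etv5 are ETS factors induced by the pathway, while Sprouty proteins (Spry2, Spry4) and the phosphatase Dusp6, which removes phosphate from ERK, are induced by it and damp it. Mouse ES cells make Fgf4, whose signal prepares them to leave pluripotency, Fgf5 marks the primed epiblast, and Fgf15 is made in the developing neural tube and in the gut.

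The genes lie on chromosomes 5 (Fgf5 and Fgfr3), 7 (Fgf4, Fgf15 and Fgfr2), 10 (Dusp6), 11 (Etv4), 14 (Spry2), 16 (Etv5) and 18 (Spry4). Promoter sequences from RefSeq (mouse build GRCm38.p6) were used for 7 of the 10 genes, with 9 start sites in all. Fgf15 and Etv4 had no sequence in the source, and Spry4 was left out of the search. Because CTCF is the depleted protein and ETS factors and the repressor Capicua (CIC, which is inactivated by ERK and is known to silence Etv4 and Etv5) act on this pathway, 3 motifs were searched on both strands from 250 bases before to 50 bases after each start. A core motif of CTCF, searched with its invariant letters only, was in none of the 9 promoters and in 8.61% of 32851 mouse promoters of that length. The ETS core CCGGAA was in those of Fgf5 and Spry2 and in 14.9% of all promoters. The CIC core TGAATG was in those of Dusp6 and of the second Etv5 start, which holds 3 matches, and in 12.7% of all promoters. The 250 bases before the start are shown for these and, as a promoter of this set with no match, for Fgf4, with matches to any of the motifs in capitals. A match is a description of letters and does not show binding.
Dusp6 (chr10:99262981-99263230, plus strand): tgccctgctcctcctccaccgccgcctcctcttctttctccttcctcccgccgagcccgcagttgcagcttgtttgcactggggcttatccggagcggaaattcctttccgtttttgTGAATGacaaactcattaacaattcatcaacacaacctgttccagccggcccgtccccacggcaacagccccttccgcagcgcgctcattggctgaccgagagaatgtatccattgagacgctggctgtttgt
Etv5, second start (chr16:22438369-22438618, minus strand): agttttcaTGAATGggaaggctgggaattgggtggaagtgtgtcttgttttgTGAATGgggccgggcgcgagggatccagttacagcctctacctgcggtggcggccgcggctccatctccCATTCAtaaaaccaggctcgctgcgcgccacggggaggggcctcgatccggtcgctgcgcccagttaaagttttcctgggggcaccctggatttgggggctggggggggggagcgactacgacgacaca
Fgf4 (chr7:144861136-144861385, plus strand): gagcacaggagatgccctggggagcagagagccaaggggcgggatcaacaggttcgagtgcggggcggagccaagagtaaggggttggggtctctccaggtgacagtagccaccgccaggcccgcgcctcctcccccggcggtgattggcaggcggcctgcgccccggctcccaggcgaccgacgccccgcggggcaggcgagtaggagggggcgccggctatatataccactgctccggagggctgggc

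Libraries held 24696374 to 72048935 counts, with the first replicate of each ES group at no more than 29909368 and every other library at 51053184 or more. The spread of the log2 ratio between the libraries of a group was 0.466 to 0.570 (SD over genes) in ES groups and 0.121 to 0.258 in differentiation groups, so small changes are far better resolved in the latter. Levels are given as CPM, read counts divided by the scaled library size. Ctcf RNA was between 172 and 287 CPM in all 24 libraries, which does not check the degron, since it acts on the protein. Pluripotency markers (7 genes) summed to 2478 to 3445 CPM in ES groups and 307 to 317 CPM in d6_ctl. Neural progenitor markers (5 genes) summed to 31.6 to 59.9 CPM in ES groups and 208 to 209 CPM in d6_ctl, where endoderm markers (6 genes) also summed to 478 to 489 CPM, so the cells are called by day and treatment.

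Per kilobase of exon, the pathway's targets were the most abundant of the 10 RNAs in untreated ES cells, with Etv5 at 72.6, Etv4 at 64.6, Spry4 at 53.6 and Dusp6 at 48.7 CPM per kb, alongside the ligand Fgf4 at 59.5. Fgf5 and Fgf15 were at 0.883 and 1.87 CPM per kb. By day 6 without auxin the receptors and Dusp6 led, with Fgfr2 at 16.6, Dusp6 at 16.2 and Fgfr3 at 8.47 CPM per kb, while Fgf4 was at 0.565. These levels were compared per length because long transcripts collect more reads.

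**Figure D1:**
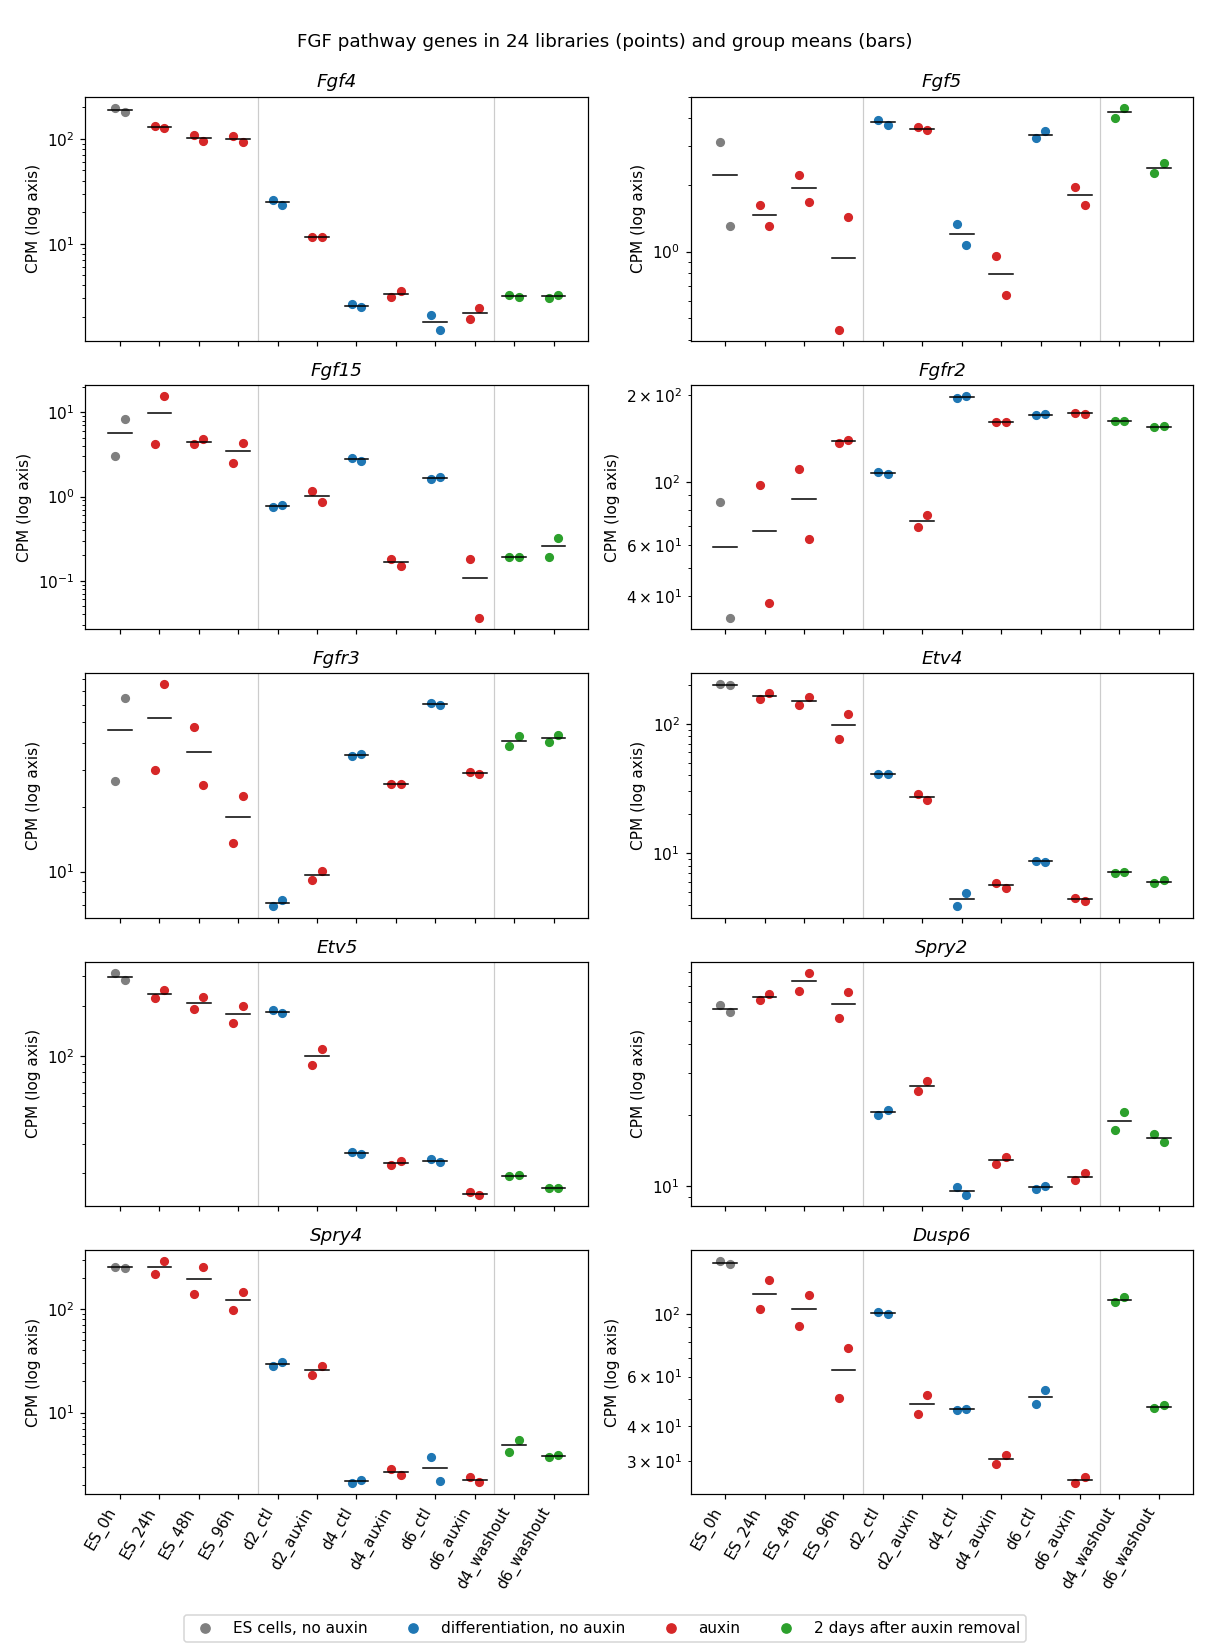
CPM of each gene (log axis) in each of the 24 libraries (points) and the group mean (bars), by group on the x axis. Fgf4, Etv4 and Spry4 were at 75.6 CPM or more in every ES library and under 10 CPM from day 4 on, while Fgf15 was under 0.2 CPM in d4_auxin and d6_auxin and Dusp6 was high in d4_washout.

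Differentiation without auxin changed most of the set. From ES_0h to d2_ctl, 8 of the 10 genes fell and none rose (10.3% of all tested genes were called higher and 7.91% lower). From d2_ctl to d4_ctl, 3 rose and 7 fell (27.2% higher and 24.8% lower among all tested genes). From d4_ctl to d6_ctl, 3 rose and 2 fell (13.6% and 13.1%). Calls are edgeR quasi-likelihood tests at an adjusted p below 0.05 over all genes of the fit, and each fold change is log2 with its standard error. In bulk RNA, fewer cells of a type and less RNA per cell cannot be told apart.

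Among the ligands, Fgf4 stood at 199 and 181 CPM in ES_0h, 26.0 and 23.6 in d2_ctl, 2.64 and 2.48 in d4_ctl, and 2.10 and 1.51 in d6_ctl. The groups did not overlap at any step, and the highest of the 12 group means was 105 times the lowest. The log2 change was −2.94 ± 0.16 to day 2 (adjusted p 1.29e-09), −3.26 ± 0.14 to day 4 (5.66e-12) and −0.51 ± 0.16 to day 6 (0.0268). Fgf5 was at 3.12 and 1.30 CPM in ES_0h, 3.94 and 3.74 in d2_ctl, 1.34 and 1.08 in d4_ctl, and 3.26 and 3.498 in d6_ctl. It thus fell between days 2 and 4 (log2 −1.65 ± 0.18, adjusted p 6.51e-07) and rose again by day 6 (1.50 ± 0.18, adjusted p 8.71e-06). Fgf15 was at 2.999 and 8.46 CPM in ES_0h, 0.750 and 0.796 in d2_ctl, 2.86 and 2.68 in d4_ctl, and 1.61 and 1.71 in d6_ctl. It fell to day 2 (log2 −2.90 ± 0.56, adjusted p 0.00143) and rose to day 4 (1.86 ± 0.28, adjusted p 3.46e-05).

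Of the receptors, Fgfr2 was at 84.7 and 33.5 CPM in ES_0h, 108 and 106 in d2_ctl, 196 and 199 in d4_ctl, and 170 and 172 in d6_ctl. The ES_0h libraries lay far apart and the step to day 2 did not pass (log2 0.86 ± 0.36, adjusted p 0.106), while it rose to day 4 (0.90 ± 0.06, adjusted p 7.57e-10) and fell slightly to day 6 (−0.19 ± 0.06, adjusted p 0.0154). Fgfr3 was at 26.4 and 65.2 CPM in ES_0h, 6.87 and 7.33 in d2_ctl, 34.8 and 35.4 in d4_ctl, and 61.2 and 60.04 in d6_ctl. It went down at day 2 and up at each later step (log2 −2.69 ± 0.41, 2.32 ± 0.08 and 0.80 ± 0.07, adjusted p 0.000178, 4.04e-13 and 3.45e-07).

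The ETS factors went down together up to day 4. Etv4 was at 201 and 200 CPM in ES_0h, 40.6 and 40.8 in d2_ctl, 3.88 and 4.96 in d4_ctl, and 8.68 and 8.61 in d6_ctl. The final rise passed the test (log2 0.97 ± 0.11, adjusted p 4.76e-06). Etv5 was at 313 and 283 CPM in ES_0h, 187 and 181 in d2_ctl, 26.8 and 26.0 in d4_ctl, and 24.2 and 23.4 in d6_ctl. Its day 2 level was still 183.8 CPM on average, against 297.9 in ES_0h, and the larger step came between days 2 and 4 (log2 −2.78 ± 0.09, adjusted p 1.21e-13).

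Among the inhibitors, Spry4 had the widest range of the 10 genes, with group means from 254.9 CPM in ES_0h to 2.16 in d4_ctl. Its libraries read 258 and 252 CPM in ES_0h, 28.2 and 30.6 in d2_ctl, 2.07 and 2.24 in d4_ctl, and 3.68 and 2.18 in d6_ctl. Spry2 was at 58.3 and 54.1, 19.98 and 21.01, 9.98 and 9.21, and 9.72 and 10.1 CPM in the same groups. Dusp6 was at 154 and 151, 102 and 99.9, 45.7 and 46.2, and 47.8 and 53.6 CPM. None of the 3 passed the test between days 4 and 6 (log2 0.43 ± 0.21 for Spry4, 0.05 ± 0.10 for Spry2 and 0.15 ± 0.08 for Dusp6). The step from ES cells to day 2 was −3.12 ± 0.28 log2 units for Spry4 (adjusted p 4.09e-07), −1.46 ± 0.15 for Spry2 (3.33e-06) and −0.60 ± 0.17 for Dusp6 (0.0205).

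Leaving out 1 library ended some of these calls, in part with little change in the fold. The Dusp6 call from ES_0h to d2_ctl missed the threshold without ES_0h replicate 1, d2_ctl replicate 1 or d2_ctl replicate 2 (log2 −0.58, −0.61 and −0.57, adjusted p 0.0777, 0.115 and 0.144), and Fgf5 and Fgfr2 were called higher in d2_ctl without ES_0h replicate 1 (adjusted p 0.0266 and 0.00555). From day 4 to day 6, the Fgf4 call was lost without d4_ctl replicate 1, d4_ctl replicate 2 or d6_ctl replicate 2 (0.139, 0.0759 and 0.327), the Fgfr2 call was lost without any 1 of the 4 libraries (0.0713 to 0.113, with log2 changes of −0.20 to −0.18), and Spry4 was called higher without d6_ctl replicate 2 (0.00843). Leaving out either d4_ctl library took the number of genes called at that step from 5 to 3. The size of 2 steps from ES_0h to d2_ctl depended on the ES_0h library used, while the calls held: it was −3.20 without replicate 1 and −1.88 without replicate 2 for Fgfr3, and −3.45 and −1.94 for Fgf15.

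Auxin during differentiation lowered Dusp6 on all 3 days, removed most Fgf15 RNA on days 4 and 6, and changed the other genes by day. On day 2, 2 of the 10 genes were higher with auxin and 5 lower (9.84% of all tested genes were called higher and 8.43% lower). On day 4, 2 were higher and 5 lower (11.8% and 11.8%). On day 6, none was higher and 6 were lower (14% and 15.2%). The median log2 change of the 10 genes was −0.36, −0.25 and −0.79 on the 3 days, and that of all tested genes was 0.02, 0 and 0.01.

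Fgf15 showed the largest change of the set. It was at 2.86 and 2.68 CPM in d4_ctl and at 0.183 and 0.152 CPM in d4_auxin, from 171 and 177 counts against 10 and 10. On day 6 it was at 1.61 and 1.71 CPM in d6_ctl and at 0.182 and 0.0360 CPM in d6_auxin, from 99 and 125 counts against 11 and 2. The log2 change was −4.05 ± 0.36 on day 4 (adjusted p 2.71e-07) and −3.89 ± 0.39 on day 6 (adjusted p 1.02e-06), and the groups did not overlap on either day. On day 2, 1.16 and 0.870 CPM with auxin stood against 0.750 and 0.796 without, and the test was not passed (log2 0.40 ± 0.30, adjusted p 0.415). The effects of days 2 and 4 themselves differed (log2 difference −4.45 ± 0.48, adjusted p 1.54e-05).

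Neural markers differed in the same libraries. The 5 neural progenitor markers summed to 176 to 183 CPM in d4_ctl and 99.1 to 106 in d4_auxin, and to 208 to 209 CPM in d6_ctl and 135 to 143 in d6_auxin. Of these, Olig2 was at 6.46 and 7.21 CPM in d4_ctl and 0.147 and 0.243 in d4_auxin, and Pax6 was at 64.7 and 66.1 against 15.1 and 13.9 CPM, while Nes was at 57.6 and 60.5 against 68.9 and 77.05 CPM. The 4 neuronal markers summed to 168 to 180 CPM in d6_ctl and 11.5 in both d6_auxin libraries, and the 7 pluripotency markers to 307 to 317 against 670 to 687 CPM. The part of these shifts in the change of Fgf15 was not tested.

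The other ligands went different ways. Fgf4 was at 26.0 and 23.6 CPM in d2_ctl and 11.5 and 11.6 in d2_auxin, a log2 change of −1.09 ± 0.12 (adjusted p 8.77e-06). On day 4 it was at 2.64 and 2.48 CPM without auxin and 3.12 and 3.57 with it, which did not pass (0.38 ± 0.15, adjusted p 0.0824), and the effects of days 2 and 4 differed by 1.47 ± 0.19 log2 units (adjusted p 0.000122). Fgf5 was at 3.26 and 3.498 CPM in d6_ctl and 1.97 and 1.62 in d6_auxin, so the groups did not overlap (log2 −0.92 ± 0.17, adjusted p 0.000544). On day 4 it was at 1.34 and 1.08 CPM against 0.954 and 0.637 (−0.62 ± 0.21, adjusted p 0.0443).

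Fgfr3 changed direction between days. It was at 6.87 and 7.33 CPM in d2_ctl and 9.11 and 10.1 in d2_auxin, and so higher with auxin (log2 0.45 ± 0.08, adjusted p 0.00113). On day 4 it was at 34.8 and 35.4 CPM without and 25.6 and 25.7 with auxin (−0.46 ± 0.07, adjusted p 0.000175). On day 6 it was at 61.2 and 60.04 CPM against 29.3 and 28.6 (−1.08 ± 0.07, adjusted p 8.13e-09), so the rise seen in control cells from day 4 to day 6 left d6_auxin at less than the d4_ctl level. The auxin effect on Fgfr3 differed between days 2 and 4 (−0.91 ± 0.11, adjusted p 6e-05) and between days 4 and 6 (−0.62 ± 0.10, adjusted p 0.00176). Fgfr2 was lower with auxin on day 2, at 69.4 and 76.7 CPM against 108 and 106 (−0.54 ± 0.06, adjusted p 4.3e-06), and on day 4, at 162 and 162 CPM against 196 and 199 (−0.29 ± 0.06, adjusted p 0.000868). On day 6 it was at 174 and 173 CPM with auxin and 170 and 172 without (0.00 ± 0.06).

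Etv4 and Etv5 were lower with auxin on days 2 and 6. Etv5 was at 187 and 181 CPM in d2_ctl and 88.5 and 110 in d2_auxin (log2 −0.87 ± 0.08, adjusted p 1.03e-06), and at 24.2 and 23.4 in d6_ctl and 15.4 and 14.8 in d6_auxin (−0.66 ± 0.09, adjusted p 1.59e-05). On day 4 its 26.8 and 26.0 CPM without and 22.4 and 23.8 with auxin did not pass (−0.20 ± 0.08, adjusted p 0.1). Etv4 was at 40.6 and 40.8 CPM in d2_ctl and 28.9 and 25.7 in d2_auxin (−0.56 ± 0.09, adjusted p 0.000469). On day 4 it was slightly higher with auxin, at 5.92 and 5.40 CPM against 3.88 and 4.96 (0.35 ± 0.11, adjusted p 0.0374). On day 6 it was at 4.51 and 4.31 CPM against 8.68 and 8.61 (−0.98 ± 0.11, adjusted p 3.37e-06), and its auxin effects on days 4 and 6 differed by −1.33 ± 0.16 log2 units (adjusted p 0.000101). The effects of days 2 and 4 also differed, by 0.91 ± 0.15 for Etv4 (adjusted p 0.000794) and 0.67 ± 0.12 for Etv5 (adjusted p 0.00127).

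The inhibitors did not move as a group. Dusp6 was at 102 and 99.9 CPM in d2_ctl and 44.3 and 51.6 in d2_auxin (log2 −1.06 ± 0.08, adjusted p 6.84e-08). It was at 45.7 and 46.2 CPM against 29.4 and 31.6 on day 4 (−0.60 ± 0.08, adjusted p 2.31e-05), and at 47.8 and 53.6 against 25.1 and 26.4 on day 6 (−0.99 ± 0.08, adjusted p 5.76e-08). The auxin libraries were below the control libraries on every day. Spry2 was higher with auxin on days 2 and 4, at 25.3 and 27.8 CPM against 19.98 and 21.01 (0.39 ± 0.09, adjusted p 0.0058) and at 12.4 and 13.3 against 9.98 and 9.21 (0.42 ± 0.10, adjusted p 0.00407). Spry2 was at 10.6 and 11.4 CPM with and 9.72 and 10.1 without auxin on day 6 (0.14 ± 0.10, adjusted p 0.308). Spry4 passed on none of the 3 days, with log2 changes of −0.17 ± 0.15, 0.29 ± 0.21 and −0.37 ± 0.21.

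**Figure D2:**
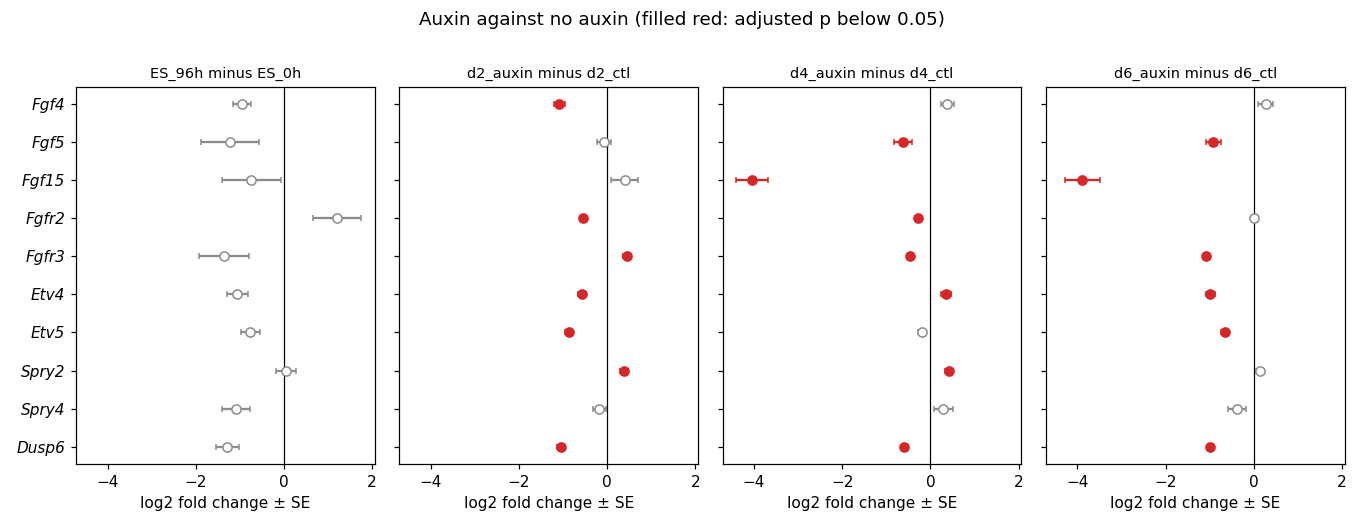
Log2 fold change with auxin (x axis, ± SE) of each gene in ES cells at 96 h and on days 2, 4 and 6, from 2 libraries a group, with filled red points for an adjusted p below 0.05. Fgf15 lies at −4.05 and −3.89 on days 4 and 6, and Dusp6 lies below 0 in all 4 panels.

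Several calls were lost when 1 library was left out. On day 4, the Fgf5 call was lost without d4_ctl replicate 1, d4_ctl replicate 2 or d4_auxin replicate 2 (log2 −0.46, −0.78 and −0.34, adjusted p 0.286, 0.0516 and 0.388), the Etv4 call without d4_ctl replicate 1, d4_auxin replicate 1 or d4_auxin replicate 2 (0.382, 0.227 and 0.0598), and the Spry2 call without d4_ctl replicate 2 or d4_auxin replicate 2 (0.0681 and 0.051), so that 4 genes were called on day 4 without d4_auxin replicate 2. The Spry2 call on day 2 was lost without d2_ctl replicate 1 (0.0835), and Spry4 was called lower on day 6 without d6_ctl replicate 2 (0.012). Fgf15 was called on days 4 and 6 in every such fit, but its day 6 change was −5.47 without d6_auxin replicate 1 and −3.19 without d6_auxin replicate 2.

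Across the set, the auxin effect differed between days 2 and 4 for 6 genes, 4 with a positive and 2 with a negative difference (4.56% and 5.34% of all tested genes). Between days 4 and 6 it differed for 4 genes, 1 positive and 3 negative (2.05% and 2.19%). The remaining calls were those of Dusp6 between days 2 and 4 (0.46 ± 0.11, adjusted p 0.0121), and of Fgfr2 (0.30 ± 0.08, adjusted p 0.0417) and Etv5 (−0.46 ± 0.12, adjusted p 0.0397) between days 4 and 6. The Dusp6 call was lost without d4_ctl replicate 1, d4_ctl replicate 2 or d4_auxin replicate 2 (adjusted p 0.0525, 0.05 and 0.0649). The calls of Fgfr2 and Etv5 were lost without any 1 of the 8 libraries (adjusted p 0.124 to 0.171 and 0.0766 to 0.159) with differences about as large (0.29 to 0.31 and −0.51 to −0.42), which left 2 or 3 genes called. Without 1 library other genes joined, namely Fgfr2 (adjusted p 0.0283 without d2_auxin replicate 1 and 0.000339 without d2_auxin replicate 2) and Spry4 (0.0461 without d2_auxin replicate 2) between days 2 and 4, and Spry4 (0.0431 without d6_ctl replicate 2) and Dusp6 (0.0464 without d6_ctl replicate 1) between days 4 and 6.

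In ES cells, Fgf4 and most of the pathway's targets read lower at 96 h of auxin than at 0 h, with wide replicate error. The calls depend on the fit, among other things on whether it holds the replicate number. None of the 10 genes passed at 24, 48 or 96 h in edgeR's quasi-likelihood fit of the ES libraries, and neither did any other gene (0% called higher and 0% lower at each time). At an unadjusted p below 0.05, 1, 2 and 6 of the 10 genes were counted at the 3 times, among 548, 1039 and 1767 of all genes. DESeq2 called 0, 0 and 3 of the 10. The 0% belongs to the edgeR fit, and the share of all genes that DESeq2 called is not given here. Same-numbered ES libraries deviated together, so the fit with the replicate number as a block is given beside this. This link was weakest for ES_0h with ES_96h (r 0.189 over genes), the groups of the 96 h comparison. In the quasi-likelihood fit above no gene was called there without the block, while DESeq2 called 3 of the 10 without it. With the block, none of the 10 genes passed at 24 h, 1 was lower at 48 h (0.0982% of all tested genes higher and 0.0982% lower), and at 96 h 1 was higher and 5 were lower (1.45% higher and 1.6% lower). The 24, 48 and 96 h comparisons share the ES_0h libraries. The 6 endoderm markers summed to 179.8 to 298.6 CPM in ES_0h and 359.7 to 610.7 in ES_96h, without overlap, and their part in the 96 h values was not tested.

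Fgf4 was at 199 and 181 CPM at 0 h, 134 and 128 at 24 h, 108 and 95.8 at 48 h, and 106 and 93.0 at 96 h. No treated library reached an untreated one. The log2 change with the block was −0.90 at 48 h (adjusted p 0.0487, against 0.534 without it) and −0.95 at 96 h (0.0178, against 0.289 without it). Dusp6 was at 154 and 151 CPM at 0 h and 50.5 and 76.2 at 96 h (−1.31, adjusted p 0.0175 with and 0.265 without the block). Etv4 was at 201 and 200 CPM and then 75.6 and 119 (−1.08, adjusted p 0.0237 and 0.328), and Etv5 was at 313 and 283 and then 157 and 199 (−0.77, adjusted p 0.037 and 0.364). Spry4 was at 258 and 252 CPM and then 98.9 and 145 (−1.12, adjusted p 0.0298 and 0.376). Both 96 h libraries lay below both 0 h libraries in these 5 genes and in Fgfr3, and how many of all tested genes do so was not counted.

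Fgfr2 was at 84.7 and 33.5 CPM at 0 h and 136 and 140 at 96 h (log2 1.42 and adjusted p 0.049 with the block, 1.21 and 0.593 without). Fgfr3 was at 26.4 and 65.2 CPM and then 13.6 and 22.5, which did not pass in either fit (adjusted p 0.548 without and 0.171 with the block). Spry2 was at 58.3 and 54.1 CPM at 0 h and 51.4 and 66.0 at 96 h. Fgf15 was at 2.999 and 8.46 CPM at 0 h and 2.54 and 4.36 at 96 h, and Fgf5 at 3.12 and 1.30 and then 0.444 and 1.44, so the groups overlapped in both.

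The auxin effect on day 4 differed from that in ES cells at 96 h for Fgf4 (1.32 ± 0.22, adjusted p 0.008) and Etv4 (1.40 ± 0.25, adjusted p 0.0104), both positive (0.462% of all tested genes positive and 0.772% negative). The Fgf4 call was lost without d4_ctl replicate 2 or d4_auxin replicate 2 (adjusted p 0.0692 and 0.0666), and the Etv4 call without d4_ctl replicate 1 or d4_auxin replicate 1 (0.0841 and 0.0692). For Fgf15, the difference was −3.30 ± 0.82 (adjusted p 0.0569), and it was called without ES_0h replicate 2 or ES_96h replicate 1 (0.0124 and 0.0461). Without ES_0h replicate 1, Fgfr2 was called (0.0123), and without ES_96h replicate 2, Spry4 and Dusp6 were (0.0416 and 0.0229).

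Removal of auxin was followed by higher levels of most of the set, while Fgf15 and Fgfr2 did not pass against d6_auxin in either washout group. Cells from which auxin was removed on day 4 were harvested 2 days later and are set against both day 6 groups. Against d6_auxin, 8 of the 10 genes were higher in d4_washout and none was lower (17.3% of all tested genes higher and 17.3% lower). Against d6_ctl, 4 were higher and 3 lower (16.8% and 17.1%). In d6_washout, harvested later than the day 6 groups, so that removal and time cannot be told apart, 6 were higher and none was lower than in d6_auxin (20.4% and 19.9%), and 2 were higher and 5 lower than in d6_ctl (18.5% and 18.4%). These comparisons share the d6_auxin and the d6_ctl libraries.

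Fgf15 stayed low, with 0.189 and 0.190 CPM in d4_washout and 0.190 and 0.322 in d6_washout (10, 11, 11 and 20 counts). Both groups were below both d6_ctl libraries (log2 −3.11 ± 0.36, adjusted p 5.79e-06, and −2.68 ± 0.34, adjusted p 1.06e-05). Against d6_auxin, neither passed the test (0.77 ± 0.54, adjusted p 0.297, and 1.21 ± 0.51, adjusted p 0.0677), and both did without d6_auxin replicate 1 (0.0318 and 0.00728), which leaves the library with 2 counts alone in its group. Olig2 was at 0.0692 to 0.151 CPM in the 4 washout libraries and 6.13 to 6.29 in d6_ctl, and Pax6 at 8.89 to 10.7 against 32.7 and 33.1 CPM, while Nes was at 191.3 to 222.8 against 141.1 and 145 CPM. Sox1 was at 0.744 to 1.74 CPM in the washout libraries against 14.5 and 16.4 in d6_ctl, and Sox3 at 1.545 to 3.10 against 9.33 and 11.85. The 5 neural progenitor markers together summed to 204 to 236 CPM in the washout libraries and 208 to 209 in d6_ctl. Nes made up most of that sum, which was not lower, while Sox1, Sox3, Pax6 and Olig2 each were. The 4 neuronal markers summed to 16.3 to 25.4 CPM against 168 to 180.

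In d4_washout, Dusp6 had the largest log2 change of the 10 genes over both day 6 groups among those that rose. It was at 110 and 115 CPM in d4_washout, 25.1 and 26.4 in d6_auxin and 47.8 and 53.6 in d6_ctl, and the 3 groups did not overlap. The log2 change was 2.15 ± 0.08 against d6_auxin (adjusted p 4.5e-11) and 1.16 ± 0.08 against d6_ctl (adjusted p 9.44e-09). In d6_washout it was at 46.5 and 47.4 CPM, above d6_auxin (0.88 ± 0.08, adjusted p 2.12e-07), with a difference from d6_ctl of −0.11 ± 0.08 (interval −0.26 to 0.05). Spry2 was above both day 6 groups, at 17.3 and 20.5 CPM in d4_washout and 16.6 and 15.4 in d6_washout, against 10.6 and 11.4 in d6_auxin and 9.72 and 10.1 in d6_ctl (0.94 ± 0.09 and 0.69 ± 0.09 over d6_ctl, adjusted p 1.07e-06 and 2.23e-05). Spry4 was at 4.20 and 5.48 CPM in d4_washout and 3.75 and 3.88 in d6_washout, above the 2.38 and 2.13 of d6_auxin (1.12 ± 0.20 and 0.77 ± 0.20, adjusted p 0.000385 and 0.00619).

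Of the 23 other inhibitors and targets tested, some immediate early genes that ERK induces were high in the same libraries. The phosphatase gene Dusp5, also induced by ERK, was high in d4_washout. Fos, an immediate early gene, had a mean of 108.1 CPM in d4_washout and 149.5 in d6_washout, against 12.6 in d6_auxin and 17.5 in d6_ctl (log2 2.63 ± 0.13 and 3.10 ± 0.14 over d6_ctl, adjusted p 5.62e-10 and 6.75e-11). Egr1 was at 272.6 and 246.8 CPM, against 36.7 and 32.6 (3.07 ± 0.10 and 2.92 ± 0.10, adjusted p 5.17e-12 and 3.08e-12). Dusp5, a nuclear ERK phosphatase, was at 100.9 CPM in d4_washout, against 24.7 in d6_auxin and 26.4 in d6_ctl, and at 42.6 in d6_washout. The rest of that list did not follow as a whole: in d6_washout, Etv1 was at 8.61 CPM against 16.1 in d6_ctl, Dusp4 at 18.5 against 31.9, and Spred3, an inhibitor of the Ras-ERK cascade, at 2.73 against 6.64 (−1.27 ± 0.15, adjusted p 4.56e-06). Fibroblast markers (5 collagen and matrix genes) also moved, summing to 512 to 537 CPM in d4_washout and 1014 to 1052 in d6_washout, against 228 to 240 in d6_auxin and 444 to 449 in d6_ctl. Their part in these results was not tested.

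Fgfr3, Etv4 and Fgf5 lay between the day 6 groups or near the control level. Etv5 lay between the day 6 groups as well, but in d6_washout it was near d6_auxin. Fgfr3 was at 38.7 and 42.9 CPM in d4_washout and 40.6 and 43.8 in d6_washout, above d6_auxin (0.52 ± 0.07 and 0.56 ± 0.07, adjusted p 4.31e-05 and 1.31e-05) and below d6_ctl (−0.56 ± 0.07 and −0.52 ± 0.07, adjusted p 1.4e-05 and 2.47e-05). Etv4 was at 7.06 and 7.22 CPM in d4_washout and 5.88 and 6.21 in d6_washout, above d6_auxin in both (0.72 ± 0.11 and 0.47 ± 0.11, adjusted p 0.00014 and 0.00365). In d6_washout Etv4 was also called below d6_ctl (log2 −0.55 to −0.47 when 1 library was left out). Etv5 was at 19.2 and 19.5 CPM in d4_washout, above d6_auxin (0.38 ± 0.09, adjusted p 0.00331) and below d6_ctl (−0.29 ± 0.09, adjusted p 0.0159). In d6_washout Etv5 was at 16.3 and 16.2 CPM, near the 15.4 and 14.8 of d6_auxin, from which it did not pass. It was called below d6_ctl there. When 1 library was left out, these log2 changes were 0.10 to 0.15 and −0.56 to −0.53. Fgf5 was at 4.03 and 4.46 CPM in d4_washout, its highest group mean, and at 2.27 and 2.51 in d6_washout, where it was below d6_ctl (−0.50 ± 0.17, adjusted p 0.0274). Fgf4 was at 3.26 and 3.08 CPM in d4_washout and 3.04 and 3.24 in d6_washout, above d6_ctl (0.83 ± 0.16 and 0.81 ± 0.16, adjusted p 0.000659 and 0.00063). Fgfr2 passed in none of the 4 comparisons and was at 154.9 to 163.3 CPM in the 4 washout libraries.

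Some calls were lost without 1 library. These were Fgf4 over d6_auxin (without d4_washout replicate 1 or d6_auxin replicate 1, adjusted p 0.0658 and 0.139, and in d6_washout without d6_auxin replicate 1 or d6_washout replicate 2, 0.138 and 0.06), Spry4 over d6_ctl in d4_washout (without d4_washout replicate 2 or d6_ctl replicate 2, 0.102 and 0.115) and over d6_auxin in d6_washout (without d6_auxin replicate 2, 0.0507), and Etv5 in d4_washout and Fgf5 in d6_washout below d6_ctl (without any 1 of the 4 libraries, 0.0528 to 0.0871 and 0.0609 to 0.167). Spry4 was called higher in d6_washout than in d6_ctl without d6_ctl replicate 1 (0.00488).

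**Figure D3:**
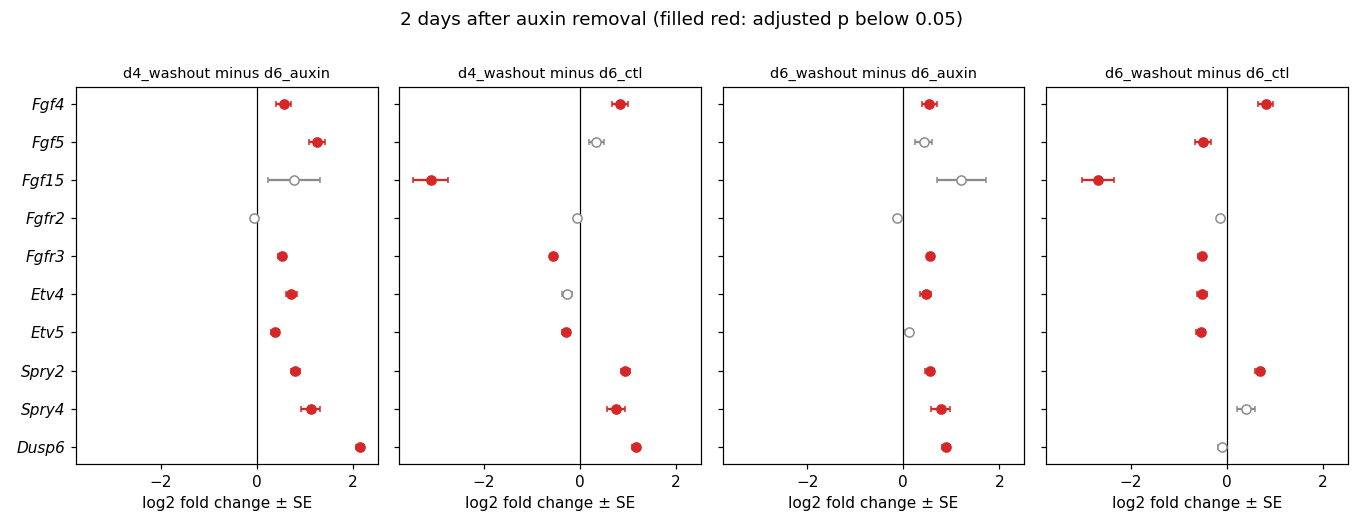
Log2 fold change (x axis, ± SE) of each gene 2 days after auxin removal against d6_auxin and d6_ctl, from 2 libraries a group, with filled red points for an adjusted p below 0.05. Dusp6 lies at 2.15 and 1.16 in d4_washout, and Fgf15 lies at −3.11 and −2.68 against d6_ctl.

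The rest of the pathway was described by lists chosen from textbook knowledge, whose counts on days 2, 4 and 6 stand against 9.84%, 11.8% and 14% of all tested genes called higher with auxin and 8.43%, 11.8% and 15.2% called lower, so that several are near the background. Of 19 other FGF ligands, 17 were tested in the differentiation fit, and 4, 3 and 4 were higher with auxin and 1, 1 and 3 lower on days 2, 4 and 6. Fgf2 was higher on all 3 days, at means of 2.51 against 1.39, 2.50 against 0.842 and 2.64 against 0.757 CPM (log2 0.88 ± 0.27, 1.56 ± 0.29 and 1.80 ± 0.29, adjusted p 0.0318, 0.00063 and 0.000127). Of 10 other receptors and co-receptors, all tested, 4, 3 and 3 were higher and 2, 5 and 6 lower. Fgfbp3, a secreted FGF carrier, was already lower with auxin on day 2, at 0.649 against 1.51 CPM (−1.22 ± 0.27, adjusted p 0.00432). It fell from 4.27 to 0.478 CPM on day 4 and from 5.70 to 0.466 on day 6 (−3.15 ± 0.26 and −3.60 ± 0.26, adjusted p 1.4e-07 and 1.96e-08). It was above d6_auxin in both washout groups, at 1.66 CPM (1.84 ± 0.28, adjusted p 0.000109) and 1.30 CPM (1.47 ± 0.29, adjusted p 0.000776). Both washout groups were still below the 5.70 CPM of d6_ctl (−1.76 ± 0.22 and −2.13 ± 0.22, adjusted p 1.16e-05 and 1.39e-06). The contrast of Fgfbp3 with Fgf15 was not tested.

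Of 20 adaptors and members of the Ras-ERK cascade, 1, 2 and 5 were higher and 2, 2 and 2 lower with auxin on the 3 days, with medians of 0.01, 0.02 and −0.01 log2 units. The adaptor Frs3 was higher on each day (0.34 ± 0.10, 0.52 ± 0.11 and 0.56 ± 0.11, adjusted p 0.0272, 0.00145 and 0.000719). Of 23 other inhibitors and targets, 3 were higher on each day and 2, 6 and 10 lower. Among the lower was Etv1, the third ETS factor of this subfamily, at 16.1 CPM in d6_ctl and 5.18 in d6_auxin (−1.65 ± 0.16, adjusted p 4.74e-07). Dusp4, another ERK phosphatase, was also lower on day 6, at 31.9 CPM in d6_ctl and 17 in d6_auxin (−0.92 ± 0.08, adjusted p 1.62e-07). Dusp14 was higher with auxin on day 4 (1.03 ± 0.12, adjusted p 4.27e-06) and day 6 (1.25 ± 0.11, adjusted p 3.09e-07). Egr1 was higher with auxin on day 4 (0.95 ± 0.09, adjusted p 7.17e-07), when Dusp6 was lower. In d4_washout, 14 of these 23 were higher and 1 lower than in d6_auxin (17.3% and 17.3% of all tested genes), and 11 were higher and 3 lower than in d6_ctl (16.8% and 17.1%). In d6_washout, 11 were higher and 4 lower than in d6_auxin (20.4% and 19.9%), and 10 were higher and 9 lower than in d6_ctl (18.5% and 18.4%). In ES cells, none of the 4 lists had a called gene at any time in the fit without the block.

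Fgf4 and Fgf15 are neighbours on chromosome 7, with starts 35146 bp apart, and Fgf3, the chloride channel gene Ano1 and the cyclin gene Ccnd1 are within 250 kb of Fgf15. On day 4, when Fgf15 was at −4.05 with auxin, Fgf4 did not pass, Fgf3 was at −0.34 ± 0.24 (adjusted p 0.371), Ccnd1 at −0.28 ± 0.09 (adjusted p 0.032) and Ano1 at −1.03 ± 0.15 (adjusted p 5.83e-05). On day 6, Ccnd1 was at −0.90 ± 0.09 (adjusted p 1.14e-06) and Ano1 at −1.57 ± 0.12 (adjusted p 5.32e-08), with Fgf3 at 0.25 ± 0.26. Gm44929, a further tested gene at −131769 bp from Fgf15, was at 0.0436 against 0.137 CPM on day 6 (−1.65 ± 0.97, adjusted p 0.244) and at 0 in the day 2 and day 4 groups. On day 2, Fgf3 was higher with auxin (0.98 ± 0.24, adjusted p 0.00948) where Fgf4 was lower, and Ano1 and Ccnd1 did not pass (0.10 ± 0.14 and 0.13 ± 0.09).

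**Figure D4:**
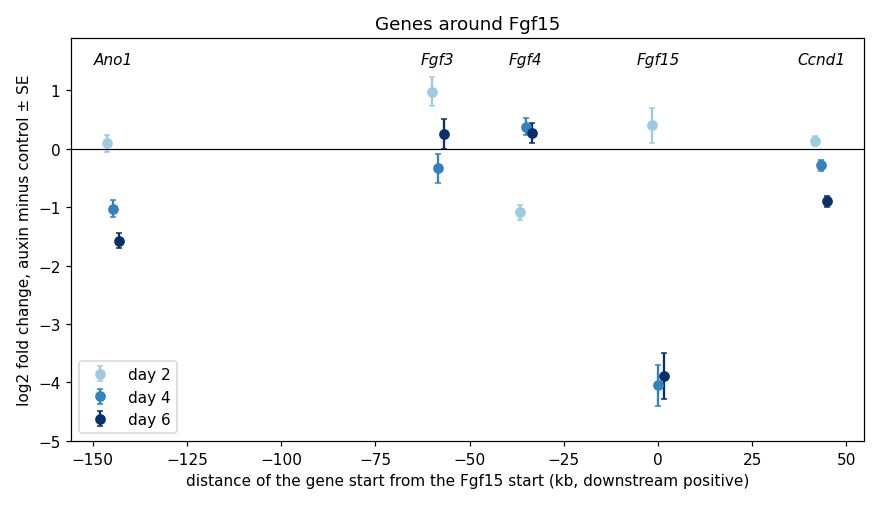
Log2 fold change with auxin (y axis, ± SE) on days 2, 4 and 6 against the distance of each gene's start from that of Fgf15 (x axis, kb). Fgf15 lies at −4.05 and −3.89 on days 4 and 6, and the plotted neighbours Ano1, Fgf3, Fgf4 and Ccnd1 lie between −1.57 and 0.98.

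Near Fgf5, Prdm8, which encodes a transcriptional regulator and starts at −86986 bp from it, was higher with auxin on day 2, at 0.626 against 0.283 CPM (1.14 ± 0.30, adjusted p 0.0127). It fell with auxin from 2.34 to 0.291 CPM on day 4 and from 5.50 to 0.424 on day 6 (−3.01 ± 0.26 and −3.71 ± 0.23, adjusted p 1.87e-07 and 3.92e-09). Antxr2, at −223141 bp from Fgf5, fell on the same days (−0.77 ± 0.08 and −1.03 ± 0.07, adjusted p 1.09e-06 and 2.05e-08). Near Etv4, the mesoderm gene Meox1 was lower on days 2, 4 and 6 (−1.25 ± 0.17, −1.34 ± 0.09 and −0.29 ± 0.09, adjusted p 5.4e-05, 1e-08 and 0.0173), on the last 2 of which Etv4 itself went opposite ways. The antisense gene Gm26793 overlaps Fgf15, and strand use in counting is not given in the sources used here. Gm26793 was at no more than 0.0652 CPM in any library from day 2 on. Another antisense gene over Fgf15, Gm39119, is absent from the read counts, so its level is not known.

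Across the 12 group means, Etv4 and Spry4 were each other's closest match among 13599 genes searched (Pearson r 0.995 of log2(CPM + 1), a description over groups that share libraries and controls). The genes closest to Fgf4 were Rrn3, Slc29a1 and Cpsf4l (r 0.995, 0.993 and 0.992). Those closest to Dusp6 were less alike, namely Arc, an immediate early gene, Rpl36a-ps2 and Ormdl2 (0.921, 0.904 and 0.903). For Fgf15 they were Slc39a14, Sec61a2 and AC124772.5 (0.933, 0.929 and 0.927), and for Fgf5 Mllt11, Rspo1 and Zfp40 (0.892, 0.862 and 0.847). Within the 8 differentiation groups, Etv4 and Spry4 had an r of 0.975, Etv4 and Etv5 of 0.956, and Etv4 and Dusp6 of 0.526.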

How the data were processed

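RNA-seq of 24 libraries in 12 groups was analysed. The authors deposited read counts per gene, with no normalization, as whole numbers. Per the submitters' processing notes, STAR, HTSeq, edgeR and the mm10 build were used, while no version or strand setting is stated in the sources used here. The header joins 2 column names with spaces, so columns were read by position after the names were split at white space, and each name matched 1 sample title. The table names 51697 genes, and 1 unnamed row was dropped. Low counts (1 to 20) were even in 59.6% to 78% of cases per library, so halved counts were tried.

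Fits used R 4.3.3 and edgeR 4.0.16: filterByExpr (minimum count 10, minimum total 15), trimmed mean of M-values scaling, glmQLFit and glmQLFTest, with Benjamini-Hochberg adjustment over all genes of a fit and a call at an adjusted p below 0.05. ES comparisons used the 8 ES libraries (20361 genes), differentiation comparisons the 16 others (22587 genes), and comparisons of both kinds all 24 (23831 genes). DESeq2 1.42.0 and limma 3.58.1 gave alternatives. The code was tested on simulated counts. SE is the absolute log2 change over the square root of F, and intervals are ± 2 SE. Same-numbered ES libraries deviated together in 6 of 6 group pairs (r 0.189 to 0.772), against 2 of 28 pairs over 0.1 in differentiation, so the numbers were taken to pair the ES libraries.

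The 10 genes are named in every comparison. Of each other list, up to 4 called genes with the largest change and a mean of at least 1 CPM could be named. Neighbours are tested genes whose start lies within 250 kb. The genes Olig2, Pax6, Nes, Sox1, Sox3 and Gm26793, and Etv1, Dusp4 and Dusp5 in d6_washout, were named after their values were seen. Members and lists were chosen with earlier results of these data known. Exon lengths and gene starts come from GENCODE vM21 and RefSeq, on the same build, with the RefSeq start used for the 10 genes.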

Additional observations from a re-analysis of the deposited data

Results flagged for a closer look

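The effect of auxin differed between stages, by a test of the difference itself (edgeR quasi-likelihood), in 12 cases. Between days 4 and 2 the difference of the log2 effects was 1.47 for Fgf4, −4.45 for Fgf15, −0.91 for Fgfr3, 0.91 for Etv4, 0.67 for Etv5 and 0.46 for Dusp6. Between days 6 and 4 it was 0.30 for Fgfr2, −0.62 for Fgfr3, −1.33 for Etv4 and −0.46 for Etv5. Between day 4 and ES cells at 96 h it was 1.32 for Fgf4 and 1.40 for Etv4. Days 4 and 2 and days 6 and 4 share the day 4 libraries. No explanation for these differences was tested.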

How the results depend on the processing

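No result changed direction while called under any alternative run. The number of the 10 members called moved as follows. With only the compared groups in the fit, d2_ctl against ES_0h went from 8 to 4 and the difference between the day 4 and ES 96 h effects from 2 to 0. With all 24 libraries in 1 fit, whose common dispersion is 0.0439 against 0.0051 for the differentiation libraries, members called went to 2 (d6_ctl against d4_ctl, from 5), 3 (auxin on day 2, from 7), 1 (auxin on day 4, from 7), 4 (d4_washout against d6_auxin, from 8), 4 (d4_washout against d6_ctl, from 7), 2 (d6_washout against d6_auxin, from 6), 4 (d6_washout against d6_ctl, from 7), 2 (day 4 against day 2 effect, from 6) and 1 (day 6 against day 4 effect, from 4), and rose from 0 to 2 and 7 in ES cells at 48 and 96 h. At 96 h DESeq2 called 3, no filter on low counts 5 and the replicate block 6, and at 48 h the block called 1. For the day 4 against ES 96 h difference, DESeq2 called 4 and no filter 5. The shares of all genes called by DESeq2 and with no filter are not given here. An adjusted p below 0.01 left 3 members for d6_ctl against d4_ctl, 2 for the day 6 against day 4 effect and 1 for day 4 against ES 96 h. Leaving out 1 library gave 3 to 4 (d6_ctl against d4_ctl), 4 to 6 (auxin on day 4), 2 to 3 (day 6 against day 4 effect) and 1 to 4 (day 4 against ES 96 h). Outside ES cells, the replicate block ended 3 calls of single members, those of Fgf5 on day 4 (adjusted p 0.0504) and of Fgfr2 and Etv5 in the day 6 against day 4 effect (0.0517 and 0.0516), and added Dusp6 to the latter (0.0407) and Fgf15 to the day 4 against ES 96 h difference (0.0353). Of 160 member results, RLE scaling left 158 on the same side of the threshold, halved counts 156 and DESeq2 151. Without scaling, 23 of 120 CPM levels moved by over 1 SD, by a ratio of at most 1.07. Of the 30 genes named for likeness, 25 were named again with a pseudocount of 0.1 and 6 with Spearman correlation. Below about 10 counts, as for Fgf15 with auxin, counting error limits the fold change.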
